A study of Mus musculus with 2 samples.

Results

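The genes described here are cadherins and non-clustered protocadherins of the mouse, 34 genes out of 55536 annotated ones. A gene was included when its symbol consisted of Cdh or Pcdh and a number and when at least 1 of its annotated transcripts was typed protein coding. That gave 23 cadherin and 11 protocadherin genes. Pcdh11x, whose symbol ends in a letter, was left out by this rule. It was at 9.83 and 10.2 TPM in replicates 1 and 2 and was counted with the other genes of the cadherin superfamily. The rule itself uses no measured value, but it was set with earlier results of these data known. Cadherins are single-pass membrane proteins whose extracellular repeats bind calcium and pair with cadherins on a neighbouring cell. Classical cadherins hold that contact to the actin cytoskeleton through catenins, and in the brain they take part in layering, axon targeting and synapse assembly. Non-clustered protocadherins lack the catenin-binding tail, bind more weakly, and signal through other cytoplasmic partners, among them the WAVE actin-nucleation complex.

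The tissue was left cerebral cortex from B6CASTF1/J females, hybrids of the C57BL/6J and CAST/EiJ strains from The Jackson Laboratory, at an age of 2 months, and the assay was sequencing of total RNA. There was 1 group, with 1 library for each of 2 biological replicates, prepared from 300 ng RNA to which ERCC spike-in RNAs had been added. The animals carried no transgene or treatment that the labels name. Both tissue samples carried the same donor entry, and whether they came from 2 animals is not stated. Their spread may therefore hold no difference between animals. Since no second condition exists, the design asks at what level each gene was present, in which transcript forms, and how far the replicates differed.

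The libraries held 31196858 and 32292150 expected counts, of which the 34 genes took 67577 and 70775. Levels are given for replicate 1 and then replicate 2 as TPM, which corrects for transcript length and has a fixed sum over each table, from the gene tables derived from alignments. A further set of tables, derived from reads without those alignments, is called read-based. All 4 neuronal, 4 excitatory and 6 inhibitory marker genes and all 4 astrocyte markers were above 1 TPM in both libraries, as were all 6 genes of the cortical layer list. The TPM of nuclear protein-coding genes summed to 466945 and 441203, so members are compared between replicates by scaled counts and not by TPM. In bulk tissue, fewer cells of a type and less RNA per cell cannot be told apart.

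Of the 34 genes, 26 were at 1 TPM or more in both libraries, the level called detected here. Among all nuclear protein-coding genes, 58.8% reached that level. All 13 type II cadherins and all 8 delta protocadherins were detected, but only 2 of 5 type I cadherins and 1 of 5 other cadherins. The 34 genes summed to 737 and 716 TPM, or 0.158% and 0.162% of the TPM of nuclear protein-coding genes. The 11 protocadherins held 63.7% and 64.3% of that sum, although they were fewer than the 23 cadherins. The 4 highest members, all protocadherins, held 51.0% and 51.9%. Without Pcdh1, the highest of them, the protocadherin share was 56.2% as the mean of both libraries. The detected members had a median level of 16.9 TPM, beside 16.05 TPM for detected protein-coding genes, and 13 of the 26 lay above that value. No comparison between groups was made on these levels.

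**Figure D1:**
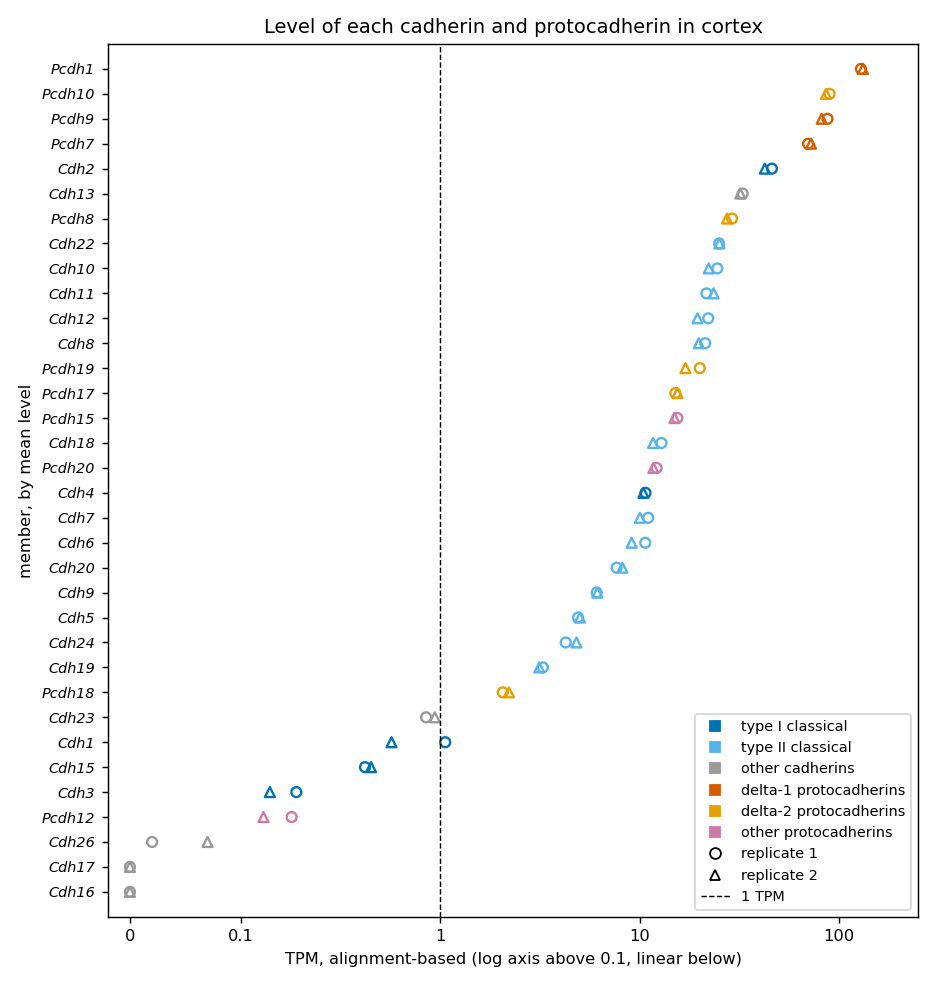
Level of each of the 34 genes in TPM, from the alignment-based gene tables, in replicate 1 (circles) and replicate 2 (triangles), coloured by subfamily and ordered by mean level. The axis is logarithmic above 0.1 TPM and linear below it, and the dashed line marks 1 TPM. The 4 highest genes are protocadherins. The type II cadherins reach from Cdh22 at 25.0 and 25.1 TPM down to Cdh19 at 3.27 and 3.14 TPM, and Cdh16 and Cdh17 sit at 0.

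The delta-1 protocadherins have cytoplasmic tails that carry a motif that binds a protein phosphatase. Their 3 members were the most abundant subfamily, with 38.8% and 39.9% of the members' TPM. Pcdh11x, left out by the symbol rule, is not in that share. Pcdh1, also known from airway epithelium, had the highest level of all 34 genes, at 129 and 132 TPM, a mean of 130.2 ± 2.09 (SD, n = 2). It ranked 605th among protein-coding genes. Pcdh9, a neuronal protocadherin with a gene of 877 kb, followed in this subfamily at 87.5 and 81.8 TPM. Pcdh7, also called NF-protocadherin and known from axon outgrowth, was at 69.95 and 72.4 TPM. At gene level, the ranges of these 3 genes over both libraries did not overlap one another. With protein_coding transcripts alone, Pcdh9 was below Pcdh7 in both libraries.

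The delta-2 protocadherins were spread over a wider range of levels. Pcdh10, or OL-protocadherin, which recruits the WAVE complex to cell contacts, was at 89.55 and 86.05 TPM, and its range overlapped that of Pcdh9. Pcdh8, also named arcadlin and known as a product of neuronal activity that promotes internalisation of N-cadherin, was at 29.1 and 27.4 TPM. Pcdh19, the X-linked gene mutated in a clustering epilepsy of girls, was at 20.02 and 17.0 TPM. Pcdh17, known for organising corticobasal synapses and axon extension, was at 15.1 and 15.5 TPM. Pcdh18 was the lowest detected member of all, at 2.06 and 2.21 TPM. Thus 4 of the 5 delta-2 genes exceeded 15 TPM in both libraries at gene level and the fifth lay far below them. With protein_coding transcripts alone, Pcdh19 at 13.0 and 12.55 TPM and Pcdh17 at 14.3 and 14.4 TPM were below 15 TPM.

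Outside the delta groups, Pcdh15, which forms the lower part of the tip link of inner-ear hair cells, was at 15.45 and 14.95 TPM. Pcdh20 was at 12.2 and 11.7 TPM. Pcdh12, an endothelial protocadherin, was at 0.18 and 0.13 TPM, from 13 and 15 counts. The other endothelial member, Cdh5 or VE-cadherin, was at 4.91 and 5.02 TPM. The 5 endothelial markers together summed to 46.4 and 45.0 TPM, and all 5 were detected.

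Of the type I classical cadherins, the strongly adhesive forms, 2 genes carried nearly all of the TPM. Cdh2, or N-cadherin, the general classical cadherin of neural tissue and of excitatory synapses, was at 46.0 and 42.45 TPM. That was the highest level of any cadherin in the alignment-based tables. Cdh4, or R-cadherin, was at 10.7 and 10.45 TPM. The remaining 3 type I genes were below 1 TPM in at least 1 library. Cdh1, the epithelial E-cadherin, was at 1.06 and 0.57 TPM, from 94 and 54 counts. Cdh15, known from muscle and cerebellum, was at 0.42 and 0.45 TPM. Cdh3, the placental cadherin, was at 0.19 and 0.14 TPM. Of the 4 epithelial markers none was detected, and their sum was 0.22 and 0.31 TPM.

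All 13 type II cadherins were detected, and together they held 23.8% and 23.5% of the members' TPM. Their levels were graded rather than led by a single gene. The highest was Cdh22 at 25.0 and 25.1 TPM. Cdh10 followed at 24.5 and 22.2 TPM. Cdh11, also named OB-cadherin and first known from bone, was at 21.6 and 23.5 TPM. Cdh12 was at 22.1 and 19.5 TPM. Cdh8, known from thalamocortical and other synaptic circuits, was at 21.3 and 19.8 TPM. In this run from Cdh10 to Cdh8 each gene overlapped its neighbour, while Cdh10 lay above both Cdh12 and Cdh8 in all libraries. A middle group around 10 TPM came next, lower than the first 5 genes in both libraries. Within it, Cdh18 was at 12.9 and 11.7 TPM. Cdh7 was at 11.0 and 10.03 TPM. Cdh6, also expressed in kidney, was at 10.7 and 9.12 TPM and overlapped Cdh7. The remaining type II genes besides Cdh5 were below 9 TPM in both libraries. Cdh20 was at 7.67 and 8.19 TPM. Cdh9, known from hippocampal synapses, was at 6.09 and 6.13 TPM. Cdh24 was at 4.26 and 4.82 TPM. The lowest of the subfamily was Cdh19, a cadherin of neural crest and Schwann cells, at 3.27 and 3.14 TPM. The order at the top depended on the tables. In the read-based ones Cdh12 was highest, at 43.1 and 42.0 TPM. There, Cdh22 was at 36.4 and 39.1 TPM and Cdh10 at 34.9 and 34.6 TPM. With protein_coding transcripts alone in the alignment-based tables, Cdh22 led at 24.8 and 24.7 TPM. Cdh11, at 16.6 and 15.6 TPM, was then below Cdh8 at 19.5 and 19.1 TPM.

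Cdh13, or T-cadherin, which is attached by a lipid anchor and has no cytoplasmic tail, was the only detected gene among the other cadherins, at 32.8 and 32 TPM. It was the second highest cadherin in these tables. In the read-based tables, Cdh13 was below Cdh2 in replicate 1, at 60.4 against 67.2 TPM. In replicate 2 it was above Cdh2, at 67.7 against 64.1 TPM. Cdh23, which joins Pcdh15 in the tip link, was at 0.85 and 0.94 TPM, so that Pcdh15 exceeded its known partner in both libraries. Cdh26 was at 0.02 and 0.07 TPM. Cdh16, the kidney cadherin, and Cdh17, the liver and intestine cadherin, had no count in the alignment-based tables. At this depth a count of 0 allows up to 3 counts. On the longest protein_coding transcript, that would have been 0.0520 and 0.0485 TPM for Cdh16 and 0.0436 and 0.0407 TPM for Cdh17. On a shorter transcript the limit in TPM would be higher. The read-based tables gave Cdh17 an estimate of 11.1 and 18.1 counts, and Cdh16 one of 1.59 and 1.01 counts. There, Cdh17 was at 0.234 and 0.373 TPM and Cdh16 at 0.399 and 0.249 TPM, so both levels differed between the quantifications.

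Among the 33 pairs of neighbours in the order of levels, 12 had overlapping ranges over both libraries. Such ranges set TPM of 1 library against TPM of the other, so an overlap does not mean that the order changed. Within each library, Pcdh10 was above Pcdh9, Cdh8 above Pcdh19, Cdh7 above Cdh6 and Cdh3 above Pcdh12. Besides those named above, the overlapping neighbours were Cdh8 and Pcdh19, Pcdh17 and Pcdh15, Cdh18 and Pcdh20, Cdh4 and Cdh7, Cdh23 and Cdh1, Cdh3 and Pcdh12, and Cdh17 and Cdh16. The read-based tables also put 26 genes at 1 TPM or more in both libraries, and 9 genes were among the 10 highest in both quantifications. The read-based TPM of nuclear protein-coding genes summed to 1.67 times the alignment-based sum. Once that factor was divided out, 25 of the 26 detected members were within 1.5-fold of their alignment-based level. The exception was Pcdh19, at 0.592 of it.

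The level of several members rested in part on short transcripts that encode no protein. A short transcript needs few reads to reach a high TPM, so the share of TPM and the share of counts held by protein_coding transcripts were set side by side. For Pcdh10, protein_coding transcripts held 74.1% and 74.0% of TPM but 97.2% and 97.3% of counts. The remainder was Pcdh10-205, a processed transcript of 634 bases at 23.2 and 22.3 TPM. For Pcdh9, protein_coding transcripts held 76.9% and 77.0% of TPM and 96.6% and 96.7% of counts, and Pcdh9-203, a retained intron of 656 bases, stood at 20.2 and 18.8 TPM. Cdh12-202, of 404 bases, held 32.4% and 28.9% of the TPM of Cdh12, and its gene shares 198 exonic bases with Gm49685 on the same strand. For Pcdh19 the short form was Pcdh19-204, of 335 bases and typed nonsense-mediated decay, at 6.60 and 4.43 TPM in the alignment-based tables and 0 in the read-based ones.

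With protein_coding transcripts alone, 26 genes were at 1 TPM or more and the protocadherin share was 64.0%. Pcdh10 was then at 66.4 and 63.7 TPM, below Pcdh7 at 69.7 and 71.8 TPM. Pcdh10 still overlapped Pcdh9, which at 67.3 and 63.0 TPM was also below Pcdh7. In 2 of the 26 detected genes the level moved by more than 1.5-fold. Pcdh15 moved most, to 6.74 and 5.90 TPM, which is 0.416 of its gene level. The other was Cdh7, at 6.66 and 5.68 TPM. The 41 annotated transcripts of Pcdh15 include Pcdh15-206, a retained intron at 3.76 and 3.73 TPM, which led the gene. In 22 of the 26 detected genes, protein_coding transcripts held at least 90% of the counts in both libraries.

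**Figure D2:**
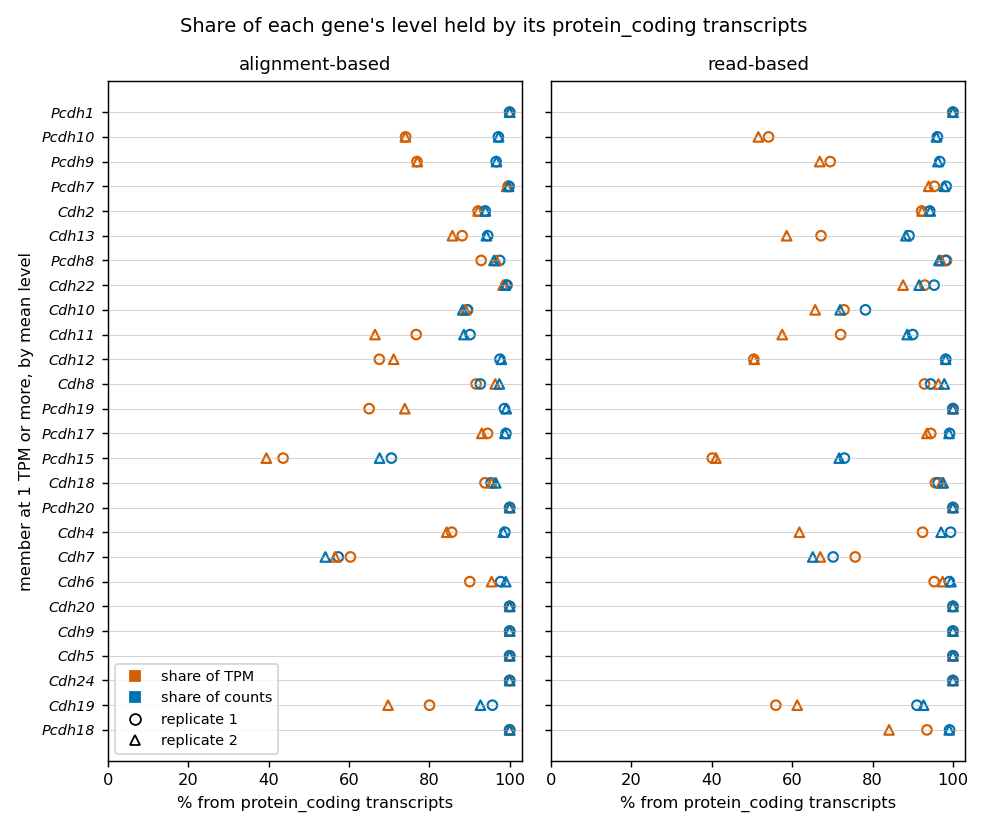
Share of each detected gene's level, in percent, that came from transcripts typed protein_coding, by TPM (orange) and by counts (blue), in the alignment-based (left) and read-based (right) tables, with circles for replicate 1 and triangles for replicate 2. By counts, 22 of 26 genes are at 90% or more in both libraries of the alignment-based tables. By TPM in those tables, Pcdh10, Pcdh9, Cdh12, Pcdh19 and Pcdh15 lie well to the left of their counts. Cdh11 and Cdh19 do so too, mostly in replicate 2. In the read-based tables Pcdh19 is at 100% by both.

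The leading transcript, the one of highest mean TPM, could be compared in 25 detected genes with several transcripts. It was the same in both quantifications for 22 of them and different for 3, beside 25% that differed among all such protein-coding genes. The 3 were Cdh10, Pcdh9 and Pcdh10. In Cdh10, Cdh10-202 led the alignment-based table and Cdh10-201 the read-based one, and both encode the same 788 residues. In Pcdh9 and Pcdh10, the read-based lead was the short transcript described above. The lead was not typed protein_coding in 2 genes of the alignment-based tables, beside 8.43% of all such genes, namely Cdh7 and Pcdh15. In the read-based tables it was 4 genes, beside 10.5%. The lead of Cdh7 was Cdh7-204, typed nonsense-mediated decay, at 4.37 and 4.36 TPM, while the transcript Cdh7-202 of 785 residues was at 2.18 and 2.20 TPM.

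Several members had transcripts that encode different protein forms. The levels below are alignment-based estimates for whole transcripts, and no protein was measured. Cdh8 divided its TPM among 4 forms. Cdh8-204, of 711 residues, was at 6.54 and 7.08 TPM, and Cdh8-203, of 799 residues, at 5.69 and 5.17 TPM. The other two, Cdh8-207 of 754 residues and Cdh8-201 of 716 residues, were at 3.60 and 2.84 TPM and at 3.37 and 3.76 TPM. The longest form was therefore not the most abundant in either library. Cdh2-201, of 906 residues, was at 23.8 and 23.6 TPM, and Cdh2-202, of 849 residues, at 18.6 and 15.5 TPM. Pcdh1-203, of 360 residues, was at 47.6 and 48.3 TPM, beside Pcdh1-204 at 49.0 and 52.35 TPM, whose coding sequence is annotated as incomplete. Together, Pcdh1-203 and Pcdh1-204 made up most of the gene level of Pcdh1, 129 and 132 TPM. The protein_coding type of these transcripts therefore does not mean a full-length protein. Pcdh10-204, encoded by a single exon and ending after 896 residues, was at 26.1 and 21.6 TPM, and the longer Pcdh10-202 of 1040 residues at 24.7 and 27.6 TPM. Which of these Pcdh10 forms was higher differed between the libraries.

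Protocadherins vary in their cytoplasmic tails by splicing of short coding segments. Segments of up to 300 bases that were coding in 1 transcript and skipped in another were searched in all members, which gave 56. For 10 of them the forms with and without the segment each reached 0.5 TPM in both libraries. The 5 below are shown because they lie in protocadherins, keep the reading frame, are contiguous in the genome and are at least 20 bases long. Coordinates are mm10, all on the minus strand except Pcdh7, and each sequence is written 5′ to 3′ along the transcript. Capitals mark the alternative segment, and lower case marks the flanking coding bases of the longer form.
Pcdh8 segment, chr14:79768497-79768787: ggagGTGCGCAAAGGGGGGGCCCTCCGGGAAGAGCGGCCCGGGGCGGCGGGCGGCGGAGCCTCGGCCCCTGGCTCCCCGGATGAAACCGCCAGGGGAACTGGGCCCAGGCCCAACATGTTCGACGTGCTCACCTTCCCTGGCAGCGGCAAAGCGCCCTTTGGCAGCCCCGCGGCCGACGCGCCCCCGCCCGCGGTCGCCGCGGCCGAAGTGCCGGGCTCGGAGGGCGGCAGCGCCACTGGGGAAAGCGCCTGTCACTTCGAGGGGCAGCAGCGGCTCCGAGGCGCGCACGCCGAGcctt
Pcdh19 segment, chrX:133682092-133682232: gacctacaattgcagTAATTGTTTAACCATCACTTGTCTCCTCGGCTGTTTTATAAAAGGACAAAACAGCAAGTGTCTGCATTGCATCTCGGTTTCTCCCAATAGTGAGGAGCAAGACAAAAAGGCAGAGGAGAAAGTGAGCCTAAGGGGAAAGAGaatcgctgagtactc
Pcdh9 first segment, chr14:93560476-93560577: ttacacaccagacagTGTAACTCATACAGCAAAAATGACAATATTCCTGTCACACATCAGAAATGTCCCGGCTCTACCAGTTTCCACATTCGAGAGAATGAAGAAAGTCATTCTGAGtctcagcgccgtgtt
Pcdh9 second segment, chr14:93326755-93326880: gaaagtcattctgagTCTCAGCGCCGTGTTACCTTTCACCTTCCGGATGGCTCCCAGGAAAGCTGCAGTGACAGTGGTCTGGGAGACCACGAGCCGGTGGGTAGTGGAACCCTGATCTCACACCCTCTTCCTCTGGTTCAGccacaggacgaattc
Pcdh7 segment, chr5:57913349-57913372: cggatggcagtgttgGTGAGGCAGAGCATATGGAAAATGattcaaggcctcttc

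The Pcdh8 segment of 291 bases encodes 97 residues at one end of an exon, and 76.6% of its bases are G or C. Transcripts with it held 64.0% and 59.9% of the TPM of the forms compared, at 17.3 and 15.9 TPM against 9.73 and 10.6 TPM without it. The read-based shares were 68.1% and 67.6%. The longer form was the more abundant in all 4 estimates.

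The Pcdh19 segment of 141 bases is a whole exon of 47 residues, and 43.3% of its bases are G or C. Transcripts with it held 77.6% and 77.8%, and 74.2% and 74.6% in the read-based tables. The form of 1145 residues that contains it, Pcdh19-202, was at 10.1 and 9.76 TPM, and Pcdh19-203 of 1097 residues at 2.91 and 2.79 TPM.

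In Pcdh9, the first segment, a whole exon of 34 residues, was mostly skipped. Transcripts with it held 16.2% and 12.9%, and 23.8% and 27.2% in the read-based tables. The second segment, 42 residues at one end of an exon, was mostly retained, with 67.3% and 75.5%, and 77.4% and 80.4% in the read-based tables. Pcdh9-204, of 1203 residues, lacks the first segment and holds the second, and at 26.0 and 28.5 TPM it was the highest Pcdh9 form with a complete coding sequence.

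The Pcdh7 segment of 24 bases encodes 8 residues at one end of an exon. Transcripts with it held 73.7% and 73.7%, and 61.7% and 61.0% in the read-based tables. The libraries were closer to each other than the quantifications were. All of these shares are estimates from whole transcripts, which also differ outside the segment, and were not counted from reads across the junctions.

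**Figure D3:**
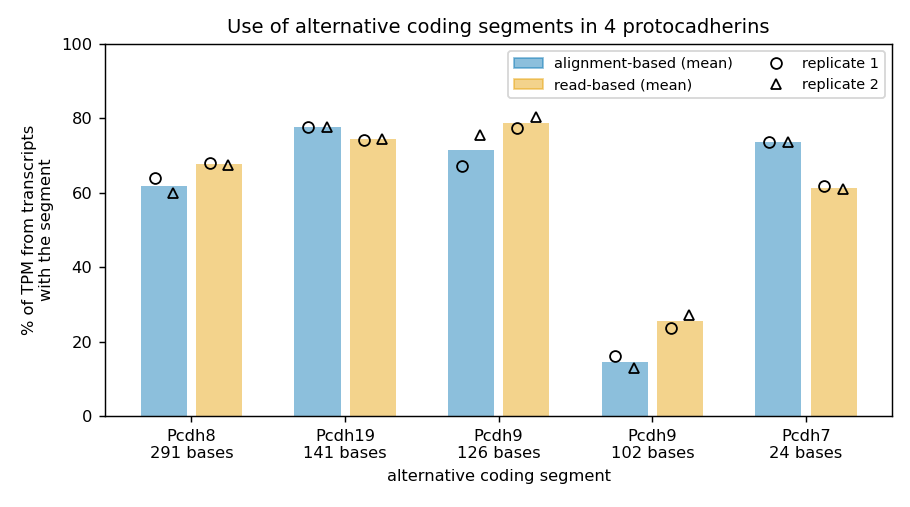
Percent of TPM held by transcripts that contain each of 5 alternative coding segments, over transcripts with and without it. Bars give the mean of 2 libraries in the alignment-based (blue) and read-based (orange) tables, circles replicate 1 and triangles replicate 2. The first 102-base segment of Pcdh9 is the only one of the 5 below 50% in all estimates.

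The members shared features of gene structure that their choice did not use. In the longest complete coding transcript, all 13 type II cadherins had 11 coding exons, and 4 of the 5 type I genes had 16, with 14 in Cdh15. The largest coding exon held a median of 20.5% of the coding bases in cadherins and 81.4% in protocadherins. Pcdh15, with 34 coding exons and 24.7% in the largest, was the protocadherin outside that pattern, and among the cadherins Cdh23 had 69 coding exons. The median gene span was 115 kb, beside 17.3 kb for nuclear protein-coding genes, and 18 of the 34 genes exceeded 100 kb, beside 11.3%. Pcdh8 and Pcdh20, at 4.54 and 6.65 kb, were the smallest.

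Members also lay in groups along the chromosomes. Chromosome 8 carried 8 of them, in the order Cdh8, Cdh11, Cdh5, Cdh16, Cdh3, Cdh1, Cdh13 and Cdh15, of which 4 were detected. The detected ones were Cdh8, Cdh11, Cdh5 and Cdh13. Chromosome 15 carried 5 type II genes within 10.4 Mb, Cdh6, Cdh9, Cdh10, Cdh12 and Cdh18, all detected. Chromosome 1 carried Cdh20, Cdh7 and Cdh19 within 6.21 Mb, all detected. Chromosome 14 carried 4 protocadherins, Pcdh8, Pcdh17, Pcdh20 and Pcdh9, and Cdh24. Exons of 7 members overlap exons of another gene, on the opposite strand in 6 of them, and the labels do not say how strand entered the counting. The largest such overlap was in Pcdh7, whose exons share 2235 bases with 4932441J04Rik, at 3.39 and 3.19 TPM.

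Binding partners and relatives were counted from lists. Of 12 catenins and linkers, which tie classical cadherins to actin, 11 were detected. The highest was Ctnnb1, or beta-catenin, at 219 and 193 TPM, and the lowest Ctnna3 at 0.76 and 0.92 TPM. All 9 WAVE complex genes were detected, from Wasf2 at 15.2 and 14.7 TPM to Cyfip2 at 271 and 259 TPM. All 7 shedding and processing genes, which cleave cadherins, were detected, from Psen2 at 7.62 and 7.17 TPM to Psenen at 40.7 and 36.3 TPM. Of 9 other genes known from inner-ear hair cells, where Pcdh15 and Cdh23 form the tip link, 5 were detected. The highest was Whrn at 26.2 and 22.95 TPM, and the lowest Tmc2 at 0 and 0.02 TPM. Of 22 other genes of the cadherin superfamily, 14 were detected, with the calsyntenin Clstn1 highest at 629 and 605 TPM and Cdhr5 lowest at 0.02 and 0 TPM. Of 57 annotated clustered protocadherin genes, 2 of which share the symbol Pcdha11, 56 were detected, from Pcdhb1 at 0.06 and 0.15 TPM to Pcdhgc5 at 87.0 and 77.6 TPM. Pcdh1 thus stood above every clustered protocadherin listed, in both libraries.

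Replicates were compared by counts scaled with TMM. A call required a mean count of 10 or more and an exact 95% interval of the ratio wholly beyond 2-fold. None of the 31 members tested was called (0 of 31), beside 0.307% of all genes tested. None was called with DESeq2 size factors either. The median log2 ratio of replicate 2 over replicate 1 was 0.03 over these 31 members, beside -0.0011 over all 18562 genes tested. The interval excluded 0 for 7 of the 31 members, 6 of them higher and 1 lower in replicate 2, beside 15.1% of all genes tested. The 6 were Pcdh1, Pcdh10, Pcdh7, Pcdh17, Cdh20 and Cdh24. Their log2 ratios were between 0.06 for Pcdh10 and 0.26 for Cdh24, whose interval ran from 0.03 to 0.49. These intervals cover counting error only and compare 2 libraries, not conditions.

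Cdh1 was the member lower in replicate 2, with a log2 ratio of -0.82 and an interval from -1.33 to -0.32. Its counts were 94 and 54, and 101 and 56.1 in the read-based tables. The interval crossed the 2-fold limit, so the gene was not called. Epithelial markers were near 0 in both libraries, at 0.22 and 0.31 TPM in sum, and 0 of 4 were detected. The 4 striatal markers, all detected, summed to 152 and 116 TPM, and the log2 ratio of scaled counts was below 0 for all 4, with a median of -0.38. The 6 meningeal markers, 5 of them detected, summed to 86.7 and 64.1 TPM, most of the difference being Igf2 at 47.5 and 28.8 TPM. Their log2 ratios were below 0 for 4 and above 0 for 2, Dcn being higher in replicate 2 at 0.34 with an interval from 0.12 to 0.56. Among 4 choroid plexus markers, 3 of them detected, Ttr alone was called, at 6.12 and 34.3 TPM, and the whole list summed to 8.73 and 37.3 TPM. The part of these marker lists in the ratio of Cdh1 was not tested.

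**Figure D4:**
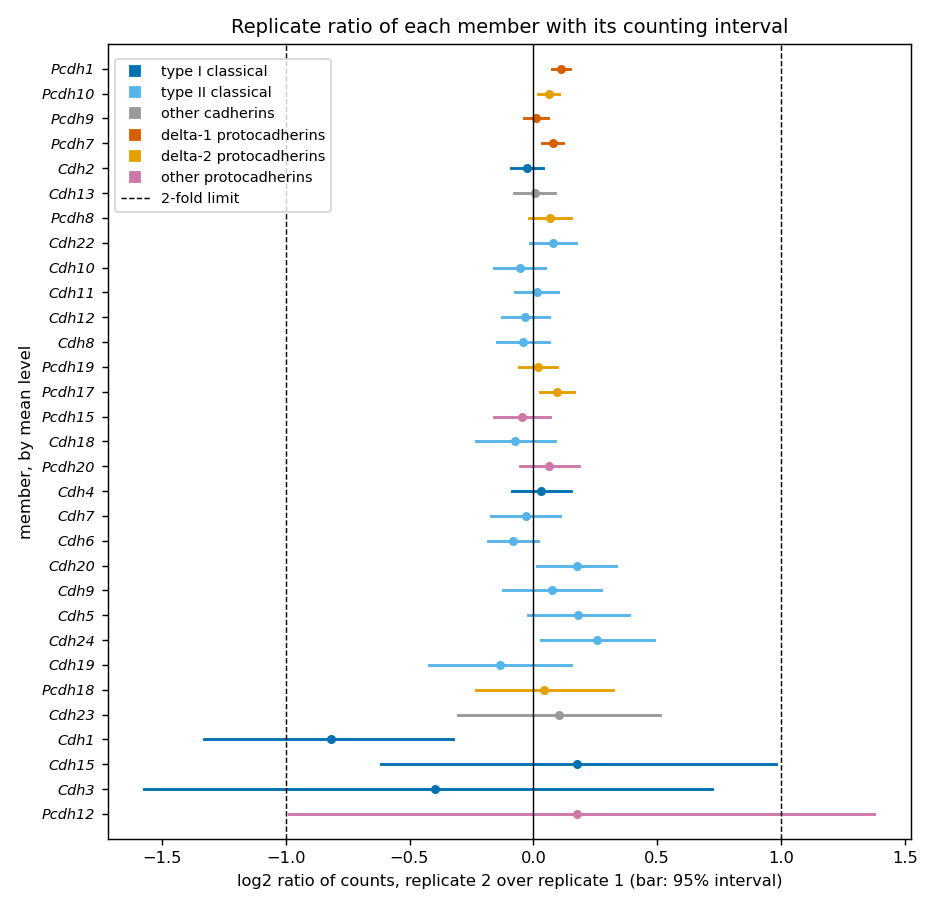
Log2 ratio of scaled counts, replicate 2 over replicate 1, with its exact 95% counting interval, for the 31 members whose mean count was 10 or more, ordered by level and coloured by subfamily. The dashed lines mark the 2-fold limits. No interval lies wholly beyond a limit, and that of Cdh1, from -1.33 to -0.32, is the only one wholly below 0.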

How the data were processed

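Per the labels, total RNA was measured in the left cortex of 2 replicates on assembly mm10 with GENCODE M21. The authors deposited expected counts and TPM per gene and transcript from alignments, and estimated counts and TPM per transcript from the reads. The names of the aligner and of both quantification tools were not given in the sources used here. Reads of CAST/EiJ alleles were quantified against the C57BL/6J reference.

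Read-based values were summed per gene. Expected counts were rounded. TMM scaling (edgeR 4.0.16, R 4.3.3) used the 18562 genes whose mean count was 10 or more, with DESeq2 1.42.0 size factors as an alternative. Ratios had 0.5 added to each count, and their 95% interval is the exact Clopper-Pearson one. The tables record no molecular identifiers and PCR copies are not independent, so all intervals and limits reflect counting error alone. Coding segments came from annotated exons and transcript sequences of GENCODE M21, shared sequence from blastn 2.17.0 (98% identity over at least 100 bases). Members at 1 TPM or more in both libraries are named, with those known from other tissues, and the highest and lowest of each partner list. Members and lists were chosen with earlier results of these data known. Protein sequences were not used here.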

Additional observations from a re-analysis of the deposited data

How the results depend on the processing

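No paired analysis was possible because there is 1 group. With the read-based tables, the members' share of nuclear protein-coding TPM was 0.154% and the protocadherin share 63.4%. The members held 0.0732% of the TPM of all annotated genes. By expected counts the protocadherin share was 68.7%, and without Pcdh1, an alternative chosen after seeing the data, 56.2%. As deposited, the read-based TPM of only 8 of the 26 detected members were within 1.5-fold of the alignment-based ones, and 25 were once the ratio of protein-coding sums was divided out. The number of detected members ranged from 26 to 27 with each replicate left out and from 26 to 31 over the other thresholds and tables. Leaving out each replicate moved the share of protein-coding TPM between 0.158% and 0.162%, the protocadherin share between 63.7% and 64.3%, and the leading transcripts that stayed the same between 24 and 25 of 25. No member was called under any of the 7 alternatives run. The median log2 ratio stayed between 0.00 and 0.05, and all single ratios stayed within their own intervals. The interval excluded 0 for 5 to 8 members over 6 alternatives. Members below 1 TPM rest on 108 counts or fewer per library, which limits their ratios.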
